A study of Mus musculus with 22 samples.

Results

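Bone marrow mesenchymal stem cells (MSC) lacking Lama4 were compared after and without co-culture with leukaemia cells. The comparison uses 7 of the 22 RNA-seq libraries of the series, chosen by the column names of the count table. The 3 KO_MSC_AML libraries are Lama4-/- MSC that had shared a well for 48 h with acute myeloid leukaemia (AML) cells driven by MLL-AF9 and were then sorted. The 4 KO_MSC libraries are Lama4-/- MSC cultured alone. Both groups thus carry the deletion, which here is the background and not the variable. The 3 KO_AML libraries are the AML cells sorted from co-culture with Lama4-/- MSC and give the level of each gene in AML cells. For comparison, 5 WT_MSC_AML and 4 WT_MSC libraries hold wild type MSC with and without AML cells. Per the labels, all mice were C57BL/6J, MSC came from animals of 10 to 14 weeks, and AML cells from animals of 10 to 12 weeks. The MSC had been expanded in culture from marrow cells sorted as SCA1+ and CD51+ and negative for lineage markers, CD45, CD31 and CD44. The AML cells derive from lineage-negative KIT+ marrow cells transduced by retrovirus with the human MLL-AF9 fusion, so they model 1 oncogene. At 30000 cells per well, MSC were plated 24 h before the same number of AML cells was added. Whether the MSC grown alone were also detached with trypsin and sorted is not stated.

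MSC are stromal cells of the bone marrow that make extracellular matrix and the factors that keep blood stem cells in their niche, such as CXCL12 and stem cell factor. Lama4 encodes the laminin α4 chain, a part of the basement membrane around marrow vessels. Leukaemia cells adhere to such stroma, so stromal cells sorted from a co-culture can bring RNA of leukaemia cells into their library.

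Counts per library ranged from 14455817 to 16207629 in KO_MSC_AML and from 15595872 to 18930208 in KO_MSC. Lama4 (chromosome 10, 38965515 to 39110188, GRCm38.p6) had 3, 1 and 0 reads in the KO_MSC_AML libraries, against 17, 8, 7 and 6 reads in the KO_MSC libraries and 194 to 320 CPM (reads per 1e6 reads counted) in the wild type MSC libraries. Every library of both groups thus followed its genotype label. One label of KO_MSC_AML replicate 3 calls its cells AML cells, while its title and description call it MSC. Its Col1a1, the main fibrillar collagen chain, stood at 16283 CPM, beside 28.1 to 145.5 CPM in KO_AML, so the library goes with its title. The stromal markers Pdgfra and Pdgfrb were at 415 CPM or more in 6 of the 7 libraries, the exception being Pdgfra at 324 CPM in KO_MSC replicate 1. Ptprc, which encodes CD45, was at 0.474 to 2.47 CPM in KO_MSC_AML and had no read in KO_MSC. Cd44 RNA, in contrast with the sort against CD44, was at 301 to 407 CPM in KO_MSC_AML and at 208 to 327 CPM in KO_MSC.

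The libraries also differed in transcripts of the sex chromosomes. Xist, expressed from the inactive X, was at 341 to 407 CPM in all 3 KO_MSC_AML libraries, and at 164, 1.92, 250 and 3.03 CPM in KO_MSC replicates 1 to 4. Ddx3y, from the Y chromosome, reached at most 0.802 CPM in KO_MSC_AML and stood at 37.4, 62.3, 1.53 and 56.4 CPM in the same order of KO_MSC replicates. KO_MSC replicate 3 was therefore the one library grown alone that matched the co-cultured libraries in both. It was also the nearest of the KO_MSC libraries to KO_MSC_AML for 43.8% of the 13452 genes tested. Co-culture and sex-linked background cannot be told apart in the other KO_MSC libraries, so results below are also given against KO_MSC replicate 3 alone where it matters. Markers of other marrow cells were few. Of 12 macrophage genes 3 passed the filter on low counts and none passed the test, C1qa, C1qb, Adgre1, Marco and Vsig4 had no read in any of the 7 libraries, and the summed level was 6.05 to 14.6 CPM in KO_MSC_AML and 16.2 to 40.8 CPM in KO_MSC. Of 12 endothelial genes 3 passed the filter and none the test, with a summed level of 10.0 to 29.7 CPM in KO_MSC_AML and 12.6 to 27.9 CPM in KO_MSC. No erythroid or lymphoid gene passed the filter.

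AML RNA was measured with 95 genes that had 100 CPM or more in every KO_AML library and under 1 CPM in every KO_MSC library. Relative to KO_AML, the median level of these genes was 0.384%, 1.20% and 0.601% in KO_MSC_AML replicates 1 to 3. In KO_MSC it was 0% to 0.0269%, which the choice of genes fixes, and in WT_MSC, which had no part in the choice, it was 0% to 0.0337%. AML RNA was thus present in all 3 co-cultured libraries and highest in replicate 2.

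**Figure D1:**
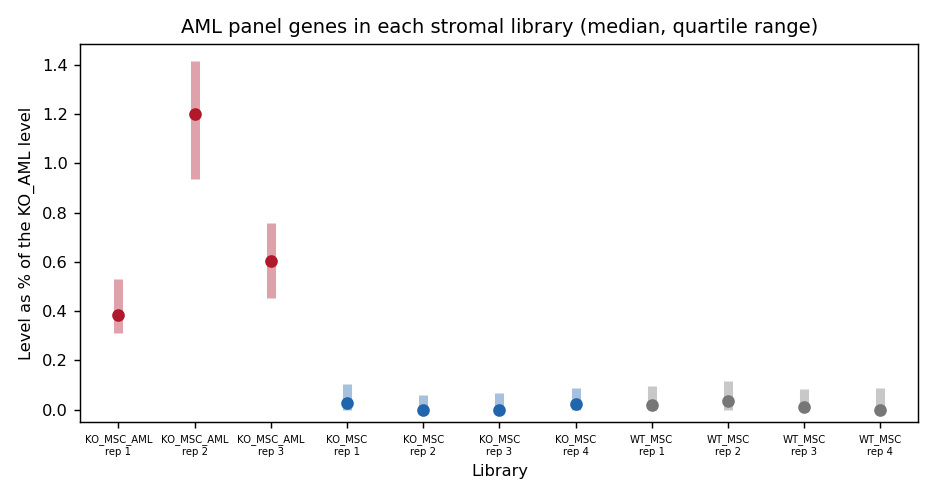
Level of the 95 AML genes in each stromal library as a percentage of their mean level in KO_AML; points are medians over genes and bars run from the lower to the upper quartile. The KO_MSC_AML libraries sit at 0.384%, 1.20% and 0.601%, above the KO_MSC and the WT_MSC libraries.

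A carry-over limit was set for each gene: the highest of these shares (1.20%) times the mean KO_AML level, as a percentage of the mean of both group means. Genes at 10% or less are called genes with little carry-over, and 12776 of the 13452 genes tested (95.0%) met this. With edgeR, 100 genes passed an adjusted p of 0.05, which is 0.743% of the genes tested. Of these, 76 rose (0.565%) and 24 fell (0.178%) in KO_MSC_AML relative to KO_MSC. Among the genes with little carry-over 17 rose (0.133%) and 24 fell (0.188%), while all of the other 59 rose. Adjusted p-values of the 100 genes lay between 0.0314 and 0.0499, all close to the threshold, and the groups overlapped in none of them. With DESeq2, 895 genes rose (5.84%) and 878 fell (5.73%), and with all 16 MSC libraries in the fit 577 rose (4.05%) and 358 fell (2.51%). Libraries that did not overlap were common in general: 10.6% of all genes tested were higher in every KO_MSC_AML library and 10.6% lower. In bulk RNA, fewer cells that express a gene and less RNA per cell cannot be told apart.

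The size of the called set depended on single libraries. Without KO_MSC_AML replicate 1, 2 or 3 the count was 0, 969 and 5 genes, and without KO_MSC replicate 1, 2, 3 or 4 it was 1, 0, 1324 and 0. Against KO_MSC replicate 3 alone no gene passed with edgeR and 611 had an unadjusted p below 0.05. That fit has 1 library in an arm, its spread comes from the 3 KO_MSC_AML libraries alone, and the lone library is assumed to vary like them, so the loss of calls does not show what the sex-linked background does. The limit of 10% fell between close neighbours: Prr11 (8.81%), Aspm (9.17%) and Racgap1 (9.86%) were just inside and Nol4 (10.0%), Dot1l (11.0%) and Ckap2l (11.1%) just outside.

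**Figure D2:**
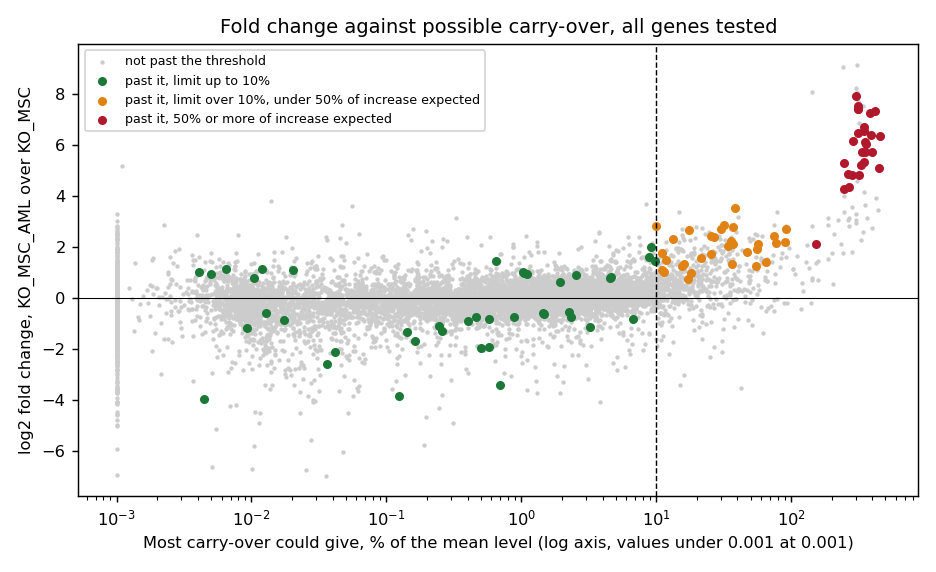
Log2 fold change of KO_MSC_AML over KO_MSC (vertical axis) against the carry-over limit in percent (logarithmic horizontal axis) for the 13452 genes tested; the dashed line is the limit of 10%. The 41 called genes left of the line lie on both sides of 0, and the 59 right of it are all above 0.

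Genes of blood cells, among them Mpo, Elane and Rac2, rose in KO_MSC_AML. For 27 of the 59 genes with more carry-over, the AML share came to at least 50% of the increase, with a range of 74.3% to 143%, computed as the mean share times the KO_AML level over the difference of group means. Of these 27 genes, 26 are among the 95 from which the AML share was computed, so that their increase lies near the expected carry-over follows from that choice and is given as a description. Mpo, the peroxidase of neutrophil granules, had 18.7, 97.6 and 27.6 CPM in KO_MSC_AML, against 0.163, 0.0640, 0.0562 and 0.691 CPM in KO_MSC. Its carry-over from a KO_AML level of 6222 CPM was expected to be 45.3 CPM, or 95.9% of the increase seen, and Mpo is itself 1 of the 95 genes. No KO_MSC mean among them was above 1.20 CPM. They include further granule proteases (Elane, Ctsg and Prtn3), the haematopoietic GTPase Rac2, the actin-bundling protein Lcp1, and the transcription factors Myb and Gfi1 of immature myeloid cells. Of the pan-haematopoietic genes 4 of 11 tested rose, of the granule genes 5 of 10, and of the genes of the MLL-AF9 programme 2 of 14. Over all genes tested 0.565% rose. At an unadjusted p below 0.05 (edgeR), 10 pan-haematopoietic genes had higher and 0 lower values. The granule genes had 6 higher and 3 lower, and the MLL-AF9 programme 3 higher and 4 lower (12.2% and 12.3% of all genes). Once the expected AML counts were subtracted, 25 of the 27 no longer passed the filter on low counts.

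Genes of cell division rose in KO_MSC_AML, and carry-over at the mean AML share would give less than 50% of the increase of those that passed. For the other 32 of the 59 genes that share came to 3.99% to 42.3% of the increase, and 13 of them are on the replication and mitosis lists. Of 38 mitosis genes tested, 11 rose and none fell, and of 33 DNA replication genes 4 rose and none fell. Over all genes tested, 0.565% rose and 0.178% fell. The median log2 fold change was 1.91 over the mitosis genes and 0.65 over the replication genes, against -0.004 over all genes tested, and 1.83 and 0.47 with the AML counts subtracted. Over the members with little carry-over it was 1.67 for 4 mitosis genes and 0.01 for 6 replication genes, against -0.02 over all such genes. The summed level of the replication list overlapped between groups, at 599 to 704 CPM in KO_MSC_AML and 560 to 699 CPM in KO_MSC. All 38 mitosis genes had an unadjusted p below 0.05 (edgeR) in the direction of an increase, which 12.2% of all genes did. In 35 of 38 every KO_MSC_AML library lay above every KO_MSC library, as in 10.6% of all genes. The expected carry-over of the 15 called genes was 4.63% to 42.3% of the increase seen. Only 2 of them, Aspm and Racgap1, met the limit for little carry-over.

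Ccna2, the cyclin A2 of S phase and entry into mitosis, had 17.2, 10.1 and 21.6 CPM in KO_MSC_AML, against 1.74, 1.60, 3.54 and 2.13 CPM in KO_MSC. Its log2 fold change was 2.85 ± 0.35 (SE; edgeR adjusted p = 0.034), and 12.5% of the increase was expected from carry-over. Mki67, the proliferation marker Ki-67, had 35.3, 22.6 and 52.6 CPM in KO_MSC_AML, against 6.02, 4.54, 8.09 and 2.76 CPM in KO_MSC. It was lowest among the co-cultured libraries in replicate 2, the one with the most AML RNA. The same replicate was lowest in 14 of the 15 called genes of division, of which none is among the 95 genes of the AML share. It was also lowest in 27 of the 32 genes with more carry-over and under 50% of the increase expected, which include 13 division genes. The cause of this order was not tested. Top2a, which untangles DNA for mitosis, had 46.5, 26.5 and 50.3 CPM in KO_MSC_AML, against 14.1, 6.91, 11.1 and 5.96 CPM in KO_MSC.

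Mcm5, a subunit of the replicative helicase, had the smallest adjusted p of all genes (0.0314). It stood at 15.5, 13.5 and 17.0 CPM in KO_MSC_AML, against 3.69, 3.07, 2.14 and 2.55 CPM in KO_MSC, with a log2 fold change of 2.42 ± 0.21. Carry-over at the mean share was expected to give 32.8% of that increase, and with AML counts subtracted the log2 fold change was 1.99. The helicase subunits Mcm2 and Mcm3 rose by 1.31 ± 0.21 and 1.23 ± 0.16 on the log2 scale, and Uhrf1, which maintains DNA methylation after replication, by 1.90 ± 0.26. With each library's own AML share in place of the mean, replicates 1 and 3 lay above the KO_MSC mean plus carry-over in all 15 genes and replicate 2 in 12 of 15. In replicate 2, Mcm3 had 13.3 CPM by library size where 14.5 CPM was expected, the spindle motor Kif11 6.23 where 6.46 was expected, and Mcm2 12.83 where 12.87 was expected. No gene of either list passed the threshold after subtraction, where the smallest adjusted p over all genes was 0.0952. Between KO_MSC_AML and KO_MSC replicate 3 alone, the 15 genes had log2 fold changes of 1.14 to 3.83.

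Racgap1 and Kif23 encode the partners of the centralspindlin complex, which drives cytokinesis, and Aspm a spindle pole protein. Racgap1 (chromosome 15, 99620496 to 99651656) had 25.5, 18.6 and 38.7 CPM in KO_MSC_AML, against 9.87, 9.34, 12.4 and 8.56 CPM in KO_MSC. Aspm (chromosome 1, 139454188 to 139494088) had 7.35, 4.85 and 6.96 CPM in KO_MSC_AML, against 1.84, 1.98, 1.24 and 1.44 CPM in KO_MSC. Kif23 (chromosome 9, 61917277 to 61946810) had 9.12, 5.36 and 12.9 CPM in KO_MSC_AML, against 2.17, 0.896, 2.02 and 0.744 CPM in KO_MSC. In all 3 genes every co-cultured library lay above every library grown alone. Expected carry-over was 6.25% of the increase of Racgap1, 4.63% of that of Aspm and 7.22% of that of Kif23.

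The promoters of these 3 genes are shown because they had the smallest expected carry-over of the 15 called division genes. Each stretch runs from 100 bases before to 30 bases after the RefSeq start on GRCm38.p6, 5′ to 3′ on the strand of the gene. The start is that of the RefSeq promoter entry, which equals the outer end of the gene for Racgap1 and lies 11 bases inside it for Kif23 and 585 bases inside it for Aspm. Capitals mark the CCAAT box, which lies on the opposite strand in all 3 and reads here as ATTGG, and the cell cycle homology region, whose letters are TTTGAA.
Racgap1, chr15:99651627-99651756, minus strand: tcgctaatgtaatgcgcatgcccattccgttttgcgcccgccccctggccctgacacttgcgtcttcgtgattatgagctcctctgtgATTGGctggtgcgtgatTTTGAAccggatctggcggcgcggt
Aspm, chr1:139454673-139454802, plus strand: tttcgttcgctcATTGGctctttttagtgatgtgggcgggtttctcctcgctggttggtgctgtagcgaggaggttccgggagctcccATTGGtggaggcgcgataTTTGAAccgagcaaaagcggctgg
Kif23, chr9:61946770-61946899, minus strand: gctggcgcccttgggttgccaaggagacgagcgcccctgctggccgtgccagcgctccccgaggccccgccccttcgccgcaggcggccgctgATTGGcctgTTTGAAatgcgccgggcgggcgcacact
In all 3, TTTGAA began 3 to 7 bases after the start, and the nearest CCAAT box began 7 to 12 bases before the start. Over the whole 300 base promoter windows and both strands, 8 of the 14 called division genes with a promoter entry held TTTGAA and 12 held CCAAT. Among all 27025 genes of the table, TTTGAA occurred in 20.2% and CCAAT in 41.1%.

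**Figure D3:**
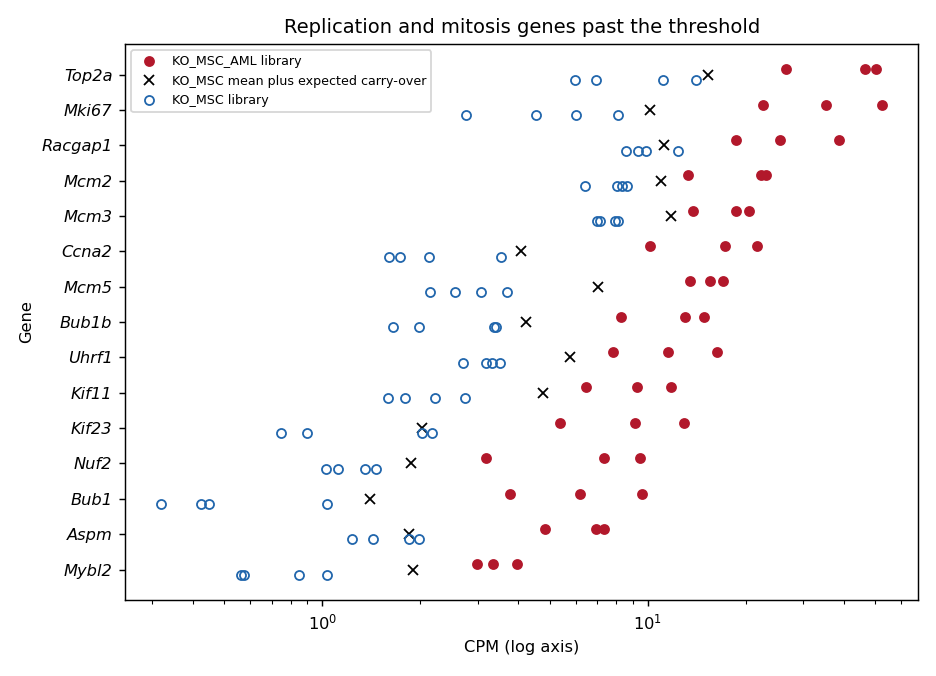
Levels in CPM (logarithmic axis) of the 15 called replication and mitosis genes in each KO_MSC_AML library (filled) and each KO_MSC library (open), with a cross at the KO_MSC mean plus the carry-over expected at the mean AML share. The KO_MSC_AML libraries lie right of the cross in all 15 genes, but at its own higher share replicate 2 would not in Mcm2, Mcm3 and Kif11.

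Inhibitors of the cycle and p53 targets held no call. None of 23 tested passed, 7 had an unadjusted p below 0.05 and lower values, as 12.3% of all genes did, and the median was -0.34. Cdkn1a, the inhibitor p21, had 574, 713 and 403 CPM in KO_MSC_AML, against 1078, 1193, 849 and 1165 CPM in KO_MSC (log2 fold change -0.93 ± 0.23; edgeR adjusted p = 0.074).

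Among the 17 genes that rose with little carry-over, Aspm, Racgap1 and Prr11 belong to cell division, Fblim1 and Fmnl3 act on adhesion sites and actin, and Pknox2, Zfp469, Zfp827 and Dnmt3a in the nucleus. The 17 log2 fold changes ran from 0.62 to 1.97. Adam12 (chromosome 7, 133883199 to 134225097), a membrane metalloprotease of mesenchymal cells, was the most abundant of the 10 largest increases. It had 286, 221 and 259 CPM in KO_MSC_AML, against 127, 129, 167 and 110 CPM in KO_MSC. Its KO_AML level of 0.814 CPM makes the expected carry-over 0.00466% of the increase, and KO_MSC replicate 3 was the nearest library grown alone.

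Fblim1, also called migfilin, links filamin to adhesion sites, and had 125, 98.6 and 168 CPM in KO_MSC_AML, against 52.0, 67.1, 67.3 and 58.4 CPM in KO_MSC. Fmnl3, a formin that elongates actin filaments, had 68.4, 49.2 and 76.8 CPM in KO_MSC_AML, against 36.0, 30.02, 32.1 and 32.7 CPM in KO_MSC. Their log2 fold changes were 1.09 ± 0.18 and 0.99 ± 0.15, and both were similar against KO_MSC replicate 3 alone, at 0.95 and 1.00. Acta1, the skeletal muscle actin, also rose, to 11.1 ± 0.795 CPM in KO_MSC_AML (SD, n = 3), against 4.05 ± 1.36 CPM in KO_MSC (n = 4).

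Pknox2, a TALE homeodomain protein, had 32.6, 30.4 and 43.0 CPM in KO_MSC_AML, against 13.6, 13.9, 15.2 and 21.1 CPM in KO_MSC. Zfp469, a zinc finger protein whose human counterpart is mutated in brittle cornea syndrome, had 54.9, 41.8 and 58.8 CPM in KO_MSC_AML, against 18.8, 28.4, 26.8 and 21.5 CPM in KO_MSC. Dnmt3a (chromosome 12, 3801559 to 3914443), the de novo DNA methyltransferase, had 21.9, 18.0 and 22.8 CPM in KO_MSC_AML, against 12.1, 10.7, 11.6 and 11.0 CPM in KO_MSC. The 3 genes did not overlap between groups, and their log2 fold changes were 1.14 ± 0.19, 1.12 ± 0.18 and 0.88 ± 0.13. Zfp827, another zinc finger protein, rose by 0.78 ± 0.13 on that scale, and Fam171b, a membrane protein, by 1.00 ± 0.14. Scarb1, the receptor for high density lipoprotein, had 49.9, 47.9 and 49.0 CPM in KO_MSC_AML, against 27.8, 26.5, 32.0 and 23.8 CPM in KO_MSC. Its spread within the co-cultured group (SD 0.999 CPM) was the smaller one, since KO_MSC had an SD of 3.42 CPM.

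Ribosomal RNA fell most among the decreases of genes at 3 or more in average log2 CPM. Rn45s, the 45S precursor, had 1588, 1156 and 901 CPM in KO_MSC_AML, against 4467, 3823, 5696 and 4694 CPM in KO_MSC, and its log2 fold change was -1.94 ± 0.26. Rn18s had 112, 84.3 and 64.7 CPM in KO_MSC_AML, against 336, 269, 436 and 333 CPM in KO_MSC. Both come from repeated genes whose reads the counting could split, and cDNA made from poly(A) tails captures them only in part, so their values are uncertain. KO_MSC replicate 3 was here the farthest library from KO_MSC_AML. Of 23 ribosome biogenesis genes tested, these 2 RNAs included, 9 had higher values with an unadjusted p below 0.05 (12.2% of all genes), only the 2 RNAs had lower ones (12.3%), and the median was 0.40.

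Mgst1, Selenbp1 and Slc22a18 each fell to less than 50% of their level in KO_MSC. Mgst1 (chromosome 6, 138140527 to 138156755), a membrane-bound glutathione transferase, had 45.5, 62.6 and 45.0 CPM in KO_MSC_AML, against 141, 134, 84.3 and 147 CPM in KO_MSC. Selenbp1, a selenium-binding methanethiol oxidase, had 5.31, 8.93 and 5.73 CPM in KO_MSC_AML, against 15.0, 13.9, 15.3 and 15.6 CPM in KO_MSC. Slc22a18, an organic cation transporter of an imprinted region, had 6.53, 8.29 and 6.57 CPM in KO_MSC_AML, against 18.9, 18.9, 13.7 and 21.3 CPM in KO_MSC. In all 3 genes every co-cultured library lay below every library grown alone. They fell by 1.31 ± 0.22, 1.17 ± 0.20 and 1.35 ± 0.19 on the log2 scale. Against KO_MSC replicate 3 alone, Mgst1 differed by -0.73, Selenbp1 by -1.21 and Slc22a18 by -0.95. Of 41 antioxidant and glutathione genes tested, Mgst1 was the only one past the threshold, 8 had lower and 2 higher values at an unadjusted p below 0.05 (12.3% and 12.2% of all genes), and the median was -0.05.

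Atp9a (chromosome 2, 168634438 to 168742370), a lipid flippase of endosomes, had 14.6, 13.3 and 14.6 CPM in KO_MSC_AML, against 38.8, 30.9, 27.4 and 33.0 CPM in KO_MSC. Cpne8, a calcium-dependent membrane-binding copine, had 19.7, 27.5 and 19.5 CPM in KO_MSC_AML, against 50.2, 50.2, 40.6 and 51.2 CPM in KO_MSC. Both fell, with no overlap between groups and log2 fold changes of -1.20 ± 0.14 and -1.11 ± 0.16. Smaller decreases were those of the haem-binding protein Hebp2 (-0.88 ± 0.15), the ubiquitin ligase Rnf130 (-0.85 ± 0.14) and Eola1 (-0.90 ± 0.15). Across the 24 decreases the log2 fold change lay between -3.97 and -0.56. KO_MSC replicate 3 was the lowest KO_MSC library in 19 of the 24 decreases and the highest in 9 of the 17 increases.

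**Figure D4:**
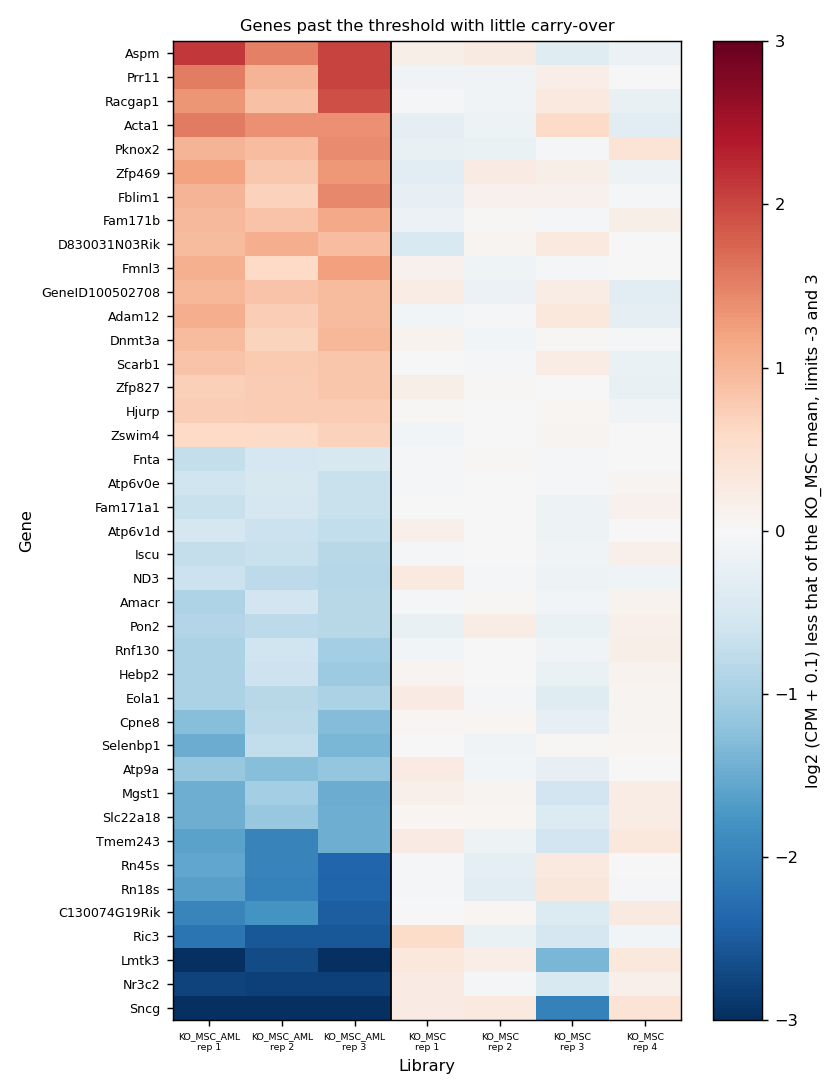
Level of the 41 called genes with little carry-over in each library, as the log2 of CPM plus 0.1 less that of the KO_MSC mean; red is above and blue below it. The KO_MSC_AML columns are red in the 17 genes that rose and blue in the 24 that fell, and KO_MSC replicate 3 is the lowest KO_MSC column in 19 of these 24, such as Sncg and Lmtk3.

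Mitochondrially encoded transcripts had lower values, with 1 past the threshold. ND3, a subunit of complex I, had 57.4, 52.3 and 50.2 CPM in KO_MSC_AML, against 111, 86.8, 81.6 and 83.1 CPM in KO_MSC, and was the 1 gene of 13 that passed the test (log2 fold change -0.76 ± 0.13). In 11 of the 13, every KO_MSC_AML library lay below every KO_MSC library, as 10.6% of all genes did, and the median was -0.37. Against KO_MSC replicate 3 alone the median was -0.33. Of 34 nuclear genes of the respiratory chain none passed, and their median was 0.01. Among 24 lysosome and autophagy genes none passed, and 9 had lower values in every KO_MSC_AML library, as 10.6% of all genes did.

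Egln3, the oxygen-sensing prolyl hydroxylase PHD3 and a target of hypoxia-inducible factor, had 19.9, 18.7 and 31.7 CPM in KO_MSC_AML, against 6.84, 6.78, 10.6 and 9.46 CPM in KO_MSC. It rose by 1.48 ± 0.24 on the log2 scale, and its carry-over limit of 11.8% was just above 10%. It was the only one of 22 hypoxia genes past the threshold. The median of these 22 was 0.24, but -0.17 against KO_MSC replicate 3 alone. None of 19 glycolysis genes passed, but 13 had higher and 1 lower values at an unadjusted p below 0.05 (12.2% and 12.3% of all genes), and their median was 0.72 (0.59 against KO_MSC replicate 3). The lactate exporter Slc16a3 had 90.9, 64.1 and 148 CPM in KO_MSC_AML, against 26.0, 29.3, 45.2 and 27.2 CPM in KO_MSC (edgeR adjusted p = 0.0585). The glucose transporter Slc2a1 had 61.4, 42.9 and 84.9 CPM in KO_MSC_AML, against 37.3, 32.1, 32.6 and 27.6 CPM in KO_MSC (edgeR adjusted p = 0.0683). Both were highest in KO_MSC_AML replicate 3.

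The amino acid response, a set of genes for serine, proline and asparagine synthesis and amino acid uptake under the factor ATF4, had a median of 1.16, next to that of mitosis among the lists plotted. None of 16 passed the threshold, while 14 had higher and 0 lower values at an unadjusted p below 0.05 (12.2% and 12.3% of all genes). Shmt2, the mitochondrial serine hydroxymethyltransferase, had 128, 77.3 and 170 CPM in KO_MSC_AML, against 32.4, 38.8, 74.2 and 39.1 CPM in KO_MSC. Aldh18a1, the first enzyme of proline synthesis, had 166, 114 and 205 CPM in KO_MSC_AML, against 56.9, 70.3, 101 and 66.8 CPM in KO_MSC. KO_MSC replicate 3 was nearest to KO_MSC_AML in 15 of the 16, and against it alone the median was 0.50. The motif TGATGNAA, which covers the composite element bound by ATF4 and a C/EBP partner, was in the promoters of 6 of the 15 list genes with an entry, and in 4.51% of all genes.

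Niche factors held no call. None of 19 tested passed, 5 had lower and 1 higher values at an unadjusted p below 0.05 (12.3% and 12.2% of all genes), and the median was -0.26. Cxcl12, the chemokine that retains blood stem cells in marrow, had 861, 1135 and 254 CPM in KO_MSC_AML, against 4343, 2009, 1016 and 2249 CPM in KO_MSC. The groups overlapped, since KO_MSC_AML replicate 2 lay above KO_MSC replicate 3, and the log2 fold change of -1.68 ± 0.63 had an edgeR adjusted p of 0.159. Kitl, which encodes stem cell factor, had 57.1, 73.1 and 58.5 CPM in KO_MSC_AML, against 99.3, 89.3, 77.2 and 84.8 CPM in KO_MSC (edgeR adjusted p = 0.0859). Il34, a ligand of the CSF1 receptor, had 23.2, 37.9 and 24.4 CPM in KO_MSC_AML, against 40.6, 132, 55.5 and 140 CPM in KO_MSC. Ptn, the growth factor pleiotrophin, was the one with higher values, at 45.9, 53 and 25.5 CPM in KO_MSC_AML, against 12.8, 3.52, 25.5 and 4.57 CPM in KO_MSC. The groups met at KO_MSC replicate 3 in Ptn and did not overlap in Kitl or Il34.

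Identity markers of MSC showed no call among 20 tested, with a median of 0.18. Twist1, a mesenchymal transcription factor, had 38.0, 43.3 and 33.2 CPM in KO_MSC_AML, against 67.4, 53.4, 50.01 and 66.8 CPM in KO_MSC (edgeR adjusted p = 0.0701). Itgav, which encodes the sort marker CD51, had 246, 166 and 304 CPM in KO_MSC_AML, against 151, 144, 144 and 139 CPM in KO_MSC (edgeR adjusted p = 0.0789). Nes, the intermediate filament nestin, varied widely within the co-cultured group, at 11.6, 0.957 and 26.9 CPM, against 1.03, 1.34, 1.07 and 0.904 CPM in KO_MSC. Its log2 fold change of 3.59 ± 0.90 therefore rests on 2 of the 3 KO_MSC_AML libraries.

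Matrix genes held no call. Of 20 basement membrane genes none passed and the median was 0.45, but it was -0.003 against KO_MSC replicate 3. Lamb1, the laminin β1 chain that pairs with α4 in vessel laminins, had 467, 455 and 661 CPM in KO_MSC_AML, against 401, 277, 343 and 276 CPM in KO_MSC (edgeR adjusted p = 0.0901). Col4a1, the collagen IV α1 chain, had 3478, 2961 and 5836 CPM in KO_MSC_AML, against 991, 1983, 3276 and 2005 CPM in KO_MSC. In Col4a1 KO_MSC replicate 3 lay within the range of the co-cultured libraries. Itga5, the fibronectin receptor chain, had 1078, 630 and 1296 CPM in KO_MSC_AML, against 302, 380, 535 and 396 CPM in KO_MSC (edgeR adjusted p = 0.0630). The urokinase gene Plau had 113, 74.5 and 148 CPM in KO_MSC_AML, against 32.9, 30.2, 58.6 and 31.9 CPM in KO_MSC (edgeR adjusted p = 0.0630). Neither gene overlapped between groups. None of the 21 matrix receptors, 31 interstitial matrix genes, 31 matrix proteases and inhibitors or 21 contractile genes tested passed, and their medians were 0.19, 0.28, -0.15 and 0.17.

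The complement, osteoblast, Wnt and cartilage lists had the lowest medians of those plotted, and these were nearer to 0 against KO_MSC replicate 3. The median was -1.58 for 14 osteoblast genes, -1.16 for 25 Wnt pathway genes, -0.92 for 13 cartilage genes and -2.57 for 11 complement genes, with none past the threshold. Against KO_MSC replicate 3 alone, the same medians were -0.12, -0.26, -0.34 and -0.73. Prg4, which encodes the joint lubricant lubricin, had 153, 253 and 52.0 CPM in KO_MSC_AML, against 1372, 1180, 515 and 1076 CPM in KO_MSC (edgeR adjusted p = 0.0668). Cfb, complement factor B, had 17.9, 29.3 and 3.67 CPM in KO_MSC_AML, against 140, 438, 41.2 and 502 CPM in KO_MSC (edgeR adjusted p = 0.0901). The Wnt inhibitor Frzb had 0.408, 0.638 and 0.129 CPM in KO_MSC_AML, against 6.29, 9.15, 1.29 and 10.3 CPM in KO_MSC (edgeR adjusted p = 0.0630). In all 3 genes the groups did not overlap, and KO_MSC replicate 3 was the lowest library grown alone. Apoe, which encodes apolipoprotein E, had 6.94, 9.25 and 0.902 CPM in KO_MSC_AML, against 233, 167, 10.7 and 169 CPM in KO_MSC, with the same library lowest.

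The remaining lists held no call either. Cytosolic ribosomal protein genes had a median of 0.41 over 40 genes, KO_MSC replicate 3 was the nearest library grown alone in all 40, and against it the median was 0.001. Medians were -0.47 for 19 inflammatory cytokine genes, -0.03 for 20 interferon response genes and -0.21 for 14 antigen presentation genes. They were -0.43 for 29 genes of the TGF-beta and BMP pathway, -0.34 for 11 Notch genes, -0.31 for 16 genes of the IGF axis and 0.15 for 10 of the EGF receptor family. The unfolded protein response had 0.12 over 20 genes, cholesterol synthesis 0.08 over 23, the adipocyte lineage -0.23 over 18 and the immediate early and heat shock genes -0.24 over 26.

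**Figure D5:**
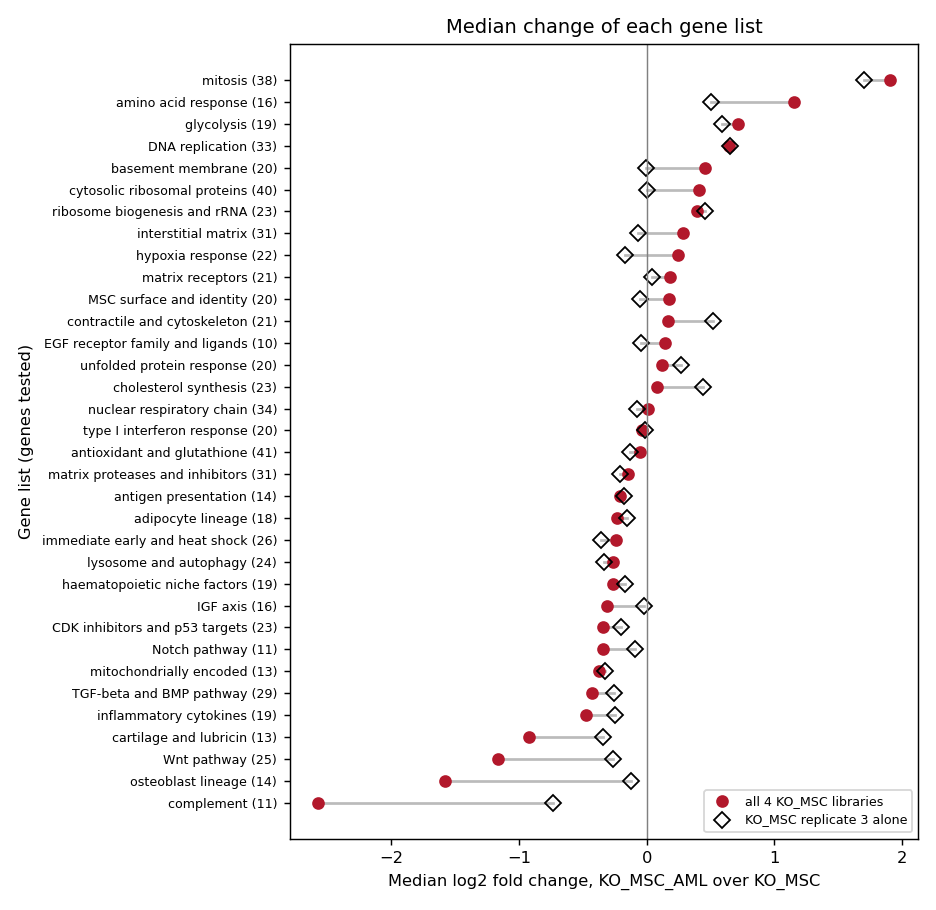
Median log2 fold change of each gene list, KO_MSC_AML over all 4 KO_MSC libraries (points) and over KO_MSC replicate 3 alone (diamonds). Mitosis stays to the right in both (1.91 and 1.70), while the complement and osteoblast lists have -2.57 and -1.58 over all 4 libraries and -0.73 and -0.12 over replicate 3.

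The same co-culture in wild type MSC gave a test of whether these changes differed between knockout and wild type libraries. These libraries also differ in sex-linked transcripts, as given below. The test of the difference, KO_MSC_AML less KO_MSC against WT_MSC_AML less WT_MSC in 16 libraries, found no gene of 14247 with edgeR (0.0%), where 1102 had an unadjusted p below 0.05, and 28 with DESeq2. Of the 41 called genes with little carry-over, 16 of the 17 that rose had a positive log2 fold change in wild type MSC. Of the 23 decreases with a value, 21 had a negative one there, but none of either set passed the threshold. The share of matching signs over all genes tested was not computed, so these counts do not set the called genes apart. Some signs of the called genes come with a wide spread within WT_MSC, as in Atp9a at 0.272 to 36.5 CPM and Slc22a18 at 1.59 to 15.9 CPM. For the 15 division genes the log2 fold change was 0.23 to 1.32 in wild type MSC. The difference of effects was 0.30 to 2.76, with an unadjusted p below 0.05 (edgeR) in 8 of them. Each of the 15 had a higher mean in WT_MSC than in KO_MSC, so the larger estimate in knockout MSC starts from a lower level. WT_MSC libraries spread widely in division genes, as in Aspm (3.13 to 24.9 CPM) and Bub1b (2.37 to 32.1 CPM). The wild type log2 fold changes are therefore uncertain, and no difference of effects passed the threshold with edgeR. Mki67 averaged 76.5 CPM in WT_MSC (9.34 to 109), against 5.36 CPM in KO_MSC and 36.8 CPM in KO_MSC_AML. Top2a averaged 107 CPM in WT_MSC (12.7 to 158), against 9.53 CPM in KO_MSC and 41.1 CPM in KO_MSC_AML. Adam12 differed by 0.35 in wild type MSC and the difference of effects was 0.59 (unadjusted p = 0.0109, edgeR). Slc16a3 had a log2 fold change of 0.24 in wild type MSC, and Plau 0.09. AML RNA was at 0.638% to 2.40% in WT_MSC_AML, so carry-over was also present there. Xist was at 1.22 to 7.14 CPM in WT_MSC_AML and 0.165 to 200 CPM in WT_MSC. Ddx3y was at 48.9 to 57.9 CPM in WT_MSC_AML and 0.759 to 57.3 CPM in WT_MSC. The KO_MSC_AML libraries had Xist at 341 to 407 CPM and Ddx3y at 0.802 CPM or less. Among co-cultured libraries, genotype and sex-linked background thus cannot be told apart.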

How the data were processed

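The authors deposited raw counts per gene, which STAR and featureCounts produced according to the file headers. The submitters' processing notes name STAR 2.6.1d, FastQC 0.11.8, MultiQC 1.7 and the builds GRCm38 and mm10, while the header of the table gives a human build name for mouse data. No source used here gives the strand setting, which leaves overlapping and antisense genes uncertain. The deposited table also carries log2 fold changes and adjusted p-values from DESeq2, per the file headers. Per the labels' protocols, libraries came from SMART-Seq v4 cDNA and Nextera XT and were read from a single end. Rows identified by a gene ID without a symbol (1275 of 27179) took 0.501% to 0.718% of the counts of the 7 libraries and stayed in the fits. A further 22 per-sample columns were not used.

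Columns were mapped by name. The 7 libraries were fitted with edgeR 4.0.16 (R 4.3.3, TMM, filterByExpr, robust quasi-likelihood F-test, two-sided). The threshold was an adjusted p of 0.05 by Benjamini-Hochberg. DESeq2 1.42.0 was an alternative. Levels are CPM with TMM factors. Marker levels, Lama4 and carry-over values use plain library size. The SE is the log2 fold change over the square root of F. The fit and the AML share were tested on simulated data. Members and gene lists were chosen with earlier results of these data known.

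By rule, the genes named are Lama4, the 10 largest increases and 10 largest decreases with little carry-over, the 5 largest other increases (all with average log2 CPM at or above 3, groups apart and a proper symbol) and up to 2 genes per direction and list. Members of the identity, niche, basement membrane, replication and mitosis lists may be named beyond that, as may genes that check identity, sex or cell type. Prr11, Nol4, Dot1l, Ckap2l, Acta1, Sncg, Lmtk3, Ctsg, Prtn3 and the genes under other observations were chosen after their values were seen.

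Counts of same-group libraries differed beyond sampling noise (chi-square of at least 6.90 per degree of freedom), so none was treated as a duplicate. Separate animals or cultures are not stated in the labels for the replicates, so p-values reflect the spread of these libraries alone, and that spread may be technical. Gene coordinates and promoters are RefSeq's on GRCm38.p6.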

Additional observations from a re-analysis of the deposited data

Results flagged for a closer look

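In 13 of the 80 genes named, 1 KO_MSC library lay far from the other 3, by a gap that was a larger part of the group's range than Dixon's critical value for 4 samples allows. Chance flags about 1 in 20 groups in this way, and the KO_MSC_AML group, with 3 libraries, was not tested. That rate does not hold for Ctsg, Gfi1, Lcp1 and Rac2. In each of these the other 3 KO_MSC libraries had no read, so any read in the remaining library sets the flag. KO_MSC replicate 3 was the library set apart in 8 of the 13. It was the high one in Plau at 58.6 CPM, in Shmt2 at 74.2 CPM, in Slc16a3 at 45.2 CPM and in Acta1 at 6.07 CPM, and the low one in Cpne8 at 40.6 CPM, in Lmtk3 at 1.40 CPM and in Sncg at 2.30 CPM. In these 7 genes it was the KO_MSC library nearest to KO_MSC_AML. It is also the one KO_MSC library with Xist and almost no Ddx3y. In Rac2 it had 0.112 CPM where the other 3 KO_MSC libraries had no read.

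Blood cell genes with no or few reads in KO_MSC gave the other cases. Mpo was at 0.691 CPM and Ctsg at 0.319 CPM in KO_MSC replicate 4, Gfi1 at 0.128 CPM in replicate 2 and Lcp1 at 0.109 CPM in replicate 1. Pdgfra, a stromal marker, was low in KO_MSC replicate 1 at 317 CPM, where the other 3 had 483 to 509 CPM.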

How the results depend on the processing

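The count of 100 genes past the threshold was 58 with RLE size factors, 214 without the filter on low counts, 52 without robust dispersions, 935 with all 16 MSC libraries in the fit and 1773 with DESeq2. The count of 41 genes with little carry-over was 18, 109, 14, 729 and 1452 in the same order. Both counts were 0 with the AML counts subtracted, where 3070 genes had an unadjusted p below 0.05, and 0 against KO_MSC replicate 3 alone, a fit with 1 library in an arm, where 611 did. Leaving out 1 library at a time gave 0 to 1324 genes, and 0 to 1145 with little carry-over. For those with little carry-over, the highest counts were 1145 without KO_MSC replicate 3 and 782 without KO_MSC_AML replicate 2, and no other omission gave more than 4. The counts thus depend on single libraries, and the cause was not tested. All 100 genes were also called by DESeq2 and 87 with all 16 libraries. With a carry-over limit of 5% or 25%, or the 90th percentile of the AML genes, 37, 53 and 38 genes counted as having little carry-over were past the threshold. The AML shares stayed within 0.372% to 0.417%, 1.15% to 1.27% and 0.566% to 0.634% under the other panels. The test of the difference between knockout and wild type effects of co-culture gave 28 genes with DESeq2. Pdgfrb, a marker with no call, had a log2 fold change of -0.021 without KO_MSC replicate 1, and leaving out each library gave -0.021 to 0.065. Same-numbered libraries correlated by 0.26, -0.08 and 0.27 in their deviations, while other pairs lay between -0.35 and 0.13. Whether the replicate numbers pair the libraries is thus not settled, and the main fit does not use them. A replicate block gave 139 genes, 108 of them with little carry-over.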

Other observations

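Chromatin enzymes were among the genes that rose, chosen here after their values were seen. Besides Dnmt3a and Uhrf1 these were Dnmt1, the maintenance DNA methyltransferase, Ezh2, which methylates histone H3 in Polycomb repression, and the histone methyltransferases Dot1l and Nsd2. Their log2 fold changes were 0.74 for Dnmt1, 0.95 for Ezh2, 1.10 for Dot1l and 1.03 for Nsd2, and all 4 lay above the limit for little carry-over. At the lower end, the proton pump subunits Atp6v1d and Atp6v0e fell by 0.62 ± 0.10 and 0.58 ± 0.09 on the log2 scale, both with little carry-over.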
